A study of Caenorhabditis elegans with 12 samples.

Results

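Cadherins are transmembrane adhesion proteins, and the cadherin genes of Caenorhabditis elegans are described here for their messenger RNAs on and off polysomes. The group was a list of 10 genes, cdh-1, cdh-3, cdh-4, cdh-7, cdh-8, cdh-10, cdh-12, fmi-1, hmr-1 and casy-1, and every probe set that the array annotation assigns to one of them was taken. Of the 10 genes, 8 had a probe set in the analysed table, with 12 probe sets in all out of 13372, and cdh-8 and cdh-12 had none in it. The list was drawn up with measured values in view, because cdh-4 was chosen by its polysomal share, as one of the most polysomal messages. The wild-type polysomal shares are therefore given as a description without a test, and so is everything on the polysomal association of cdh-4 in either genotype.

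The study asked which messages depend on IFE-1, a germline isoform of the cap-binding translation factor eIF4E, for their place on polysomes. Worms carrying the ife-1(bn127) mutation were set against wild-type worms, both as mixed-stage populations with eggs and larvae that grew for a final 3 days at 20 °C on plates with OP50 bacteria and chicken egg yolk. Each lysate was spun through a gradient of 10 to 45% sucrose, and the RNA heavier than 80S was pooled as polysomal and the lighter RNA as nonpolysomal. The 12 arrays fall into 4 groups of 3, which are ife-1(bn127) polysomal, wild-type polysomal, ife-1(bn127) nonpolysomal and wild-type nonpolysomal RNA, and each of the 6 cultures gave 1 array per fraction. Whole worms carry all tissues, so fewer cells of a type and less RNA per cell cannot be told apart.

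A classical cadherin binds the same cadherin on a neighbouring cell through its outer repeats and holds the actin cytoskeleton through catenins on its inner tail. In C. elegans, hmr-1 encodes the classical cadherin of epithelial junctions, which works with the catenins of hmp-1, hmp-2 and jac-1 when the embryonic epidermis encloses and elongates. The family also holds Fat-like proteins (cdh-3 and cdh-4), a Dachsous-like protein (cdh-1), the Flamingo homologue of planar polarity (fmi-1) and a calsyntenin, a neuronal protein of a family that binds kinesin-1 (casy-1).

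The median deposited signal of an array ran between 368 and 430, and arrays of a group correlated at 0.916 to 0.987 on the log2 scale. The ife-1 probe set itself read 62.3 to 178 on the 6 mutant arrays, with no present call (the deposited detection call). On the 6 wild-type arrays it read 3567 to 5997. Its combined level was an estimated 38.1-fold lower in mutant cultures (adjusted p = 4.28e-05 in limma). Wild-type culture 2 stood apart from its replicates, since its log2 ratios of polysomal to nonpolysomal signal had correlations of 0.773 and 0.755 with those of cultures 1 and 3, beside 0.858 between cultures 1 and 3. Its summed signal of 5 sperm markers was 8999, against 38122 and 34954 in wild-type cultures 1 and 3. Results of members whose call changes without this culture are given with and without it.

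The cadherin messages ranged from nearly all polysomal to evenly split. Polysomal share is the polysomal signal divided by the sum of polysomal and nonpolysomal signal of a culture, after quantile normalization of the arrays. The median share over the 8 genes was 61.8% in ife-1(bn127) and 68.3% in wild type, beside 48.9% and 49.1% over all 10334 named genes. These medians include cdh-4, which was listed for its polysomal share. With cdh-4 left aside, the middle share was that of cdh-10, 58.4%, in ife-1(bn127) and that of cdh-7, 66.7%, in wild type. In the mutant the order was cdh-4, fmi-1, casy-1, cdh-3, cdh-10, hmr-1, cdh-7 and cdh-1. The ranges of neighbours in this order did not overlap between cdh-4 and fmi-1 or between fmi-1 and casy-1, and overlapped for every later pair.

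**Figure D1:**
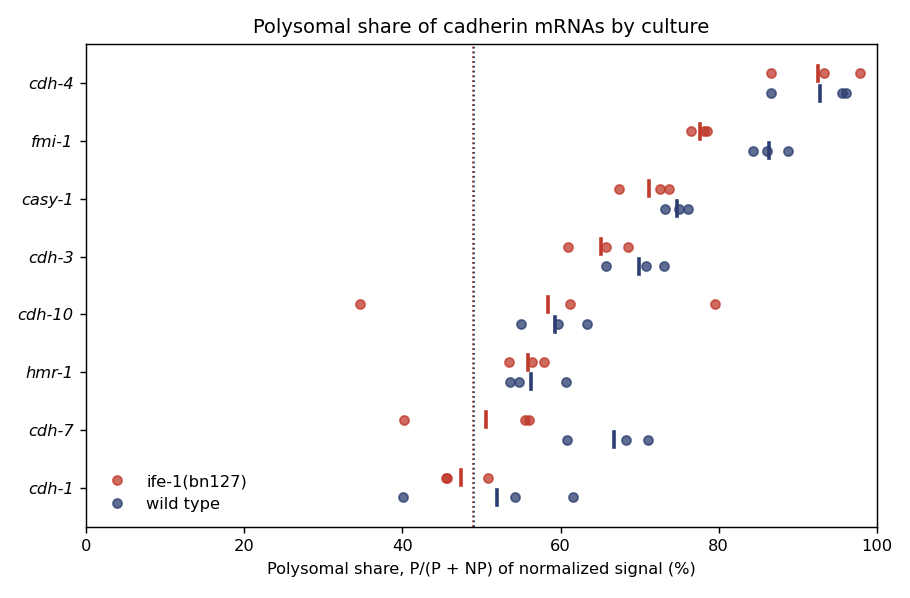
Polysomal share (%) of the 8 measured cadherin genes in each culture, with ife-1(bn127) above wild type for each gene; points are cultures, short bars are means of 3 and dotted lines are the medians of all named genes. cdh-4 lies at a mean of 92.6% in ife-1(bn127) and 92.8% in wild type, while the cdh-7 cultures of ife-1(bn127), mean 50.6%, all lie below those of wild type, mean 66.7%.

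cdh-4, a Fat-like cadherin that guides axon and cell migration, was the most polysomal member. Its probe set 194029_s_at read 557.3, 405 and 472.9 in the polysomal arrays of ife-1(bn127) cultures 1, 2 and 3, against 203, 629 and 394.7 in the polysomal arrays of wild type. The nonpolysomal arrays read 29.7, 6.1 and 57.9 in ife-1(bn127) and 8.3, 25.1 and 67.8 in wild type. All 6 polysomal arrays carried a present call and none of the 6 nonpolysomal arrays did, and every polysomal value lay above every nonpolysomal one while the genotypes overlapped in both fractions.

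The polysomal shares of cdh-4 were 93.3%, 97.8% and 86.6% in ife-1(bn127) cultures and 96.1%, 95.6% and 86.6% in wild-type cultures. Since its nonpolysomal signal was never called present, the ratio of polysomal to nonpolysomal signal has only a lower bound. The bound was at least 12.1-fold in ife-1(bn127) and at least 11.8-fold in wild type. These are the values by which the gene was chosen, and they were not tested. With present calls only in polysomal RNA, cdh-4 could also pass the authors' detection filter only through the fraction where it was high.

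Of the 7 measured members other than cdh-4, 3 were higher in polysomal than in nonpolysomal RNA of ife-1(bn127) and 0 were lower, at an adjusted p under 0.05 in limma. The background over all 13333 tested probe sets was 22.7% higher and 26.1% lower. The median log2 difference of the 7 was 0.57, beside -0.06 over all probe sets. The 3 genes were fmi-1, casy-1 and cdh-3.

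fmi-1, whose Flamingo-type protein steers axons of the ventral nerve cord, read 377.9, 374 and 379.9 in polysomal arrays of ife-1(bn127) and 79.9, 87.8 and 93.4 in its nonpolysomal arrays. The log2 difference between the mutant's fractions was 1.80 ± 0.15 (SE, adjusted p = 0.000148, limma), and the fractions did not overlap. Wild type read 385.6, 889.3 and 367 in polysomal and 52.7, 149.7 and 74.8 in nonpolysomal RNA, where culture 2 was the highest in each fraction.

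casy-1, the calsyntenin gene needed for associative learning, read 1255.6, 1389.7 and 1671.8 in polysomal and 592.5, 498.9 and 578 in nonpolysomal RNA of ife-1(bn127). Its log2 difference between fractions was 1.31 ± 0.15 (SE, adjusted p = 0.000314, limma), with all polysomal arrays above all nonpolysomal ones. A second casy-1 probe set, 187795_at, read higher in the mutant's polysomal RNA, by an estimated 1.99-fold (adjusted p = 0.00706, limma). It was never called present in nonpolysomal RNA, so it could pass the authors' detection filter only through the fraction where it was high. Its call is therefore no separate support for the first probe set. In wild type the first probe set read 1789.6, 2143.4 and 1136.4 in polysomal and 617.8, 661.3 and 374.9 in nonpolysomal RNA.

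cdh-3, the other Fat-like gene, acts in epithelial shape and is a known marker of the anchor cell. It read 557.2, 556.1 and 577.6 in polysomal and 293.3, 212.3 and 252.3 in nonpolysomal RNA of ife-1(bn127). The log2 difference was 0.90 ± 0.16 (SE, adjusted p = 0.00246, limma), again with no overlap between fractions. Wild type read 543.6, 917.6 and 711.3 in polysomal and 280.8, 320.9 and 306.3 in nonpolysomal RNA.

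The other 4 members were not called between the fractions of ife-1(bn127). hmr-1, by its brightest probe set 175623_s_at, read 3586.9, 3395.4 and 3696.4 in polysomal and 3313.6, 2802.5 and 2833 in nonpolysomal RNA of the mutant, a log2 difference of 0.34 ± 0.15 (SE, adjusted p = 0.0824, limma). Without wild-type culture 2, which enters only through the shared estimate of spread, the adjusted p was 0.0467. The other hmr-1 probe sets, 192793_s_at and 171907_x_at, gave -0.00 and 0.03 without a call.

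cdh-1, whose product resembles Dachsous, the partner of Fat proteins in the fly, was dim throughout. Its brighter probe set 193229_at read 64 to 83 on the 6 mutant arrays and 65.5 to 147.3 on the 6 wild-type arrays, all called present. The log2 difference between the mutant's fractions was -0.15 ± 0.23 (SE, adjusted p = 0.601, limma). The second probe set 193283_at, annotated to another predicted transcript, was lower in the mutant's polysomal RNA, at -0.84 ± 0.20 (adjusted p = 0.00946, limma), so the probe sets disagree in size and in call. It was called present on 2 of 3 polysomal and 3 of 3 nonpolysomal arrays of each genotype. It could thus pass the authors' detection filter only through nonpolysomal RNA, where the mutant signal was higher, and its call carries that limit.

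cdh-10 had mutant shares of 79.5%, 61.2% and 34.7%, the widest spread of any member, and its log2 difference between fractions was 0.57 ± 0.43 (SE, adjusted p = 0.303, limma). Without ife-1(bn127) culture 3 the difference was 1.31 with an adjusted p of 0.0159, and without culture 1 it was -0.13. cdh-7 had mutant shares of 55.5%, 56.0% and 40.2% and a difference of 0.03 ± 0.22 (adjusted p = 0.914).

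**Figure D2:**
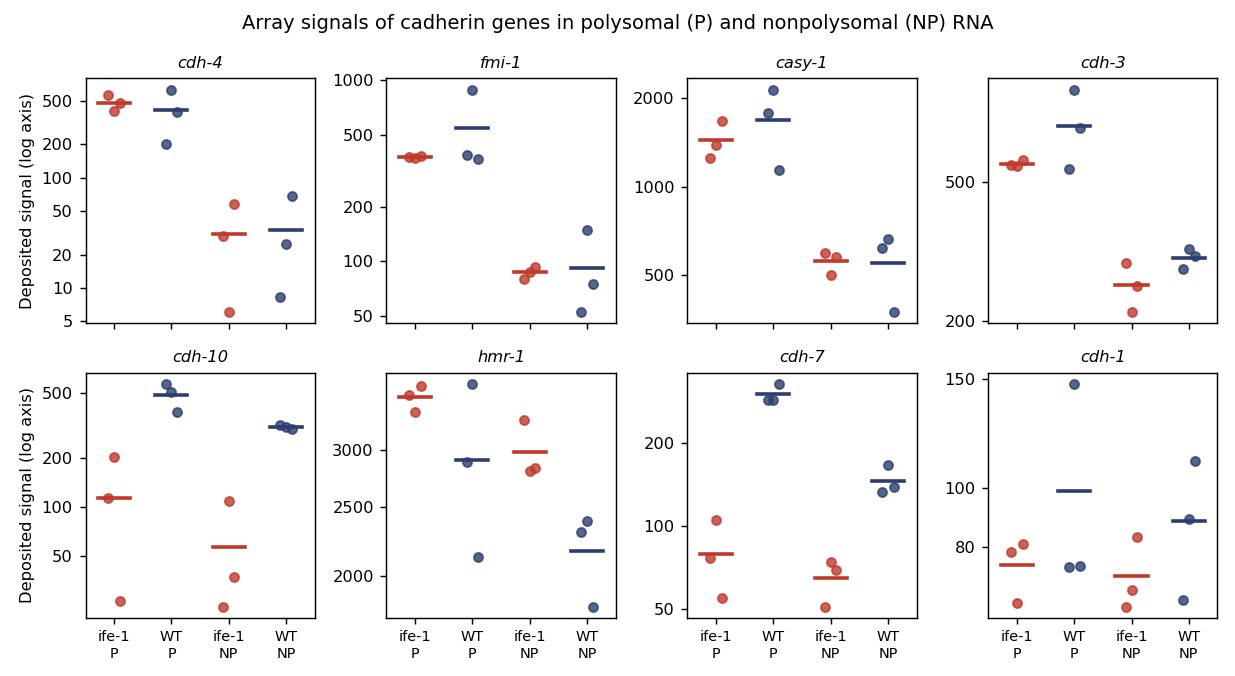
Deposited array signal (linear units on a log axis that differs between panels) of 8 cadherin genes, 1 panel per gene, in polysomal (P) and nonpolysomal (NP) RNA; points are the 3 cultures, bars are means, and ife-1(bn127) stands left of wild type (WT). cdh-4 shows the widest gap between fractions, and cdh-7 and cdh-10 show mutant signals below all wild-type signals of the same fraction.

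The design's main comparison was the difference between genotypes in log2 of polysomal over nonpolysomal signal, and no cadherin message passed it. Among the 7 members tested, 0 were higher and 0 were lower at an adjusted p under 0.05 (limma). The background at that threshold was 0.03% higher and 0.0975% lower over all probe sets. At an unadjusted p under 0.05 there were 2 of the 7. The share of all probe sets at an unadjusted p under 0.05 was not counted, so that 2 has no background beside it. The median difference of the 7 was -0.27, beside 0.03 over all probe sets, and 6 of the 7 had a negative value. The share of negative values over all probe sets was not counted.

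The members with the smallest p-values were fmi-1 and cdh-7. For fmi-1 the polysomal share was 78.1%, 78.5% and 76.4% in ife-1(bn127), against 88.7%, 86.0% and 84.3% in wild type, without overlap. The log2 ratio differed by -0.87 ± 0.21 (SE, unadjusted p = 0.00315, adjusted p = 0.0926, limma). For cdh-7 the share was 55.5%, 56.0% and 40.2% in ife-1(bn127), against 68.2%, 60.8% and 71.0% in wild type, also without overlap. Its log2 ratio differed by -0.98 ± 0.31 (SE, unadjusted p = 0.0119, adjusted p = 0.139, limma), and only 1 of the 3 nonpolysomal mutant arrays was called present for it.

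By their brightest probe sets the remaining members overlapped between genotypes. The share of all probe sets without overlap between genotypes was not counted, so the separations given have no background beside them. Their log2 differences were 0.02 ± 0.61 for cdh-10, -0.02 ± 0.21 for hmr-1, -0.26 ± 0.21 for casy-1, -0.27 ± 0.32 for cdh-1 and -0.32 ± 0.23 for cdh-3, with adjusted p between 0.456 and 0.990 (limma). For cdh-4 the value was 0.07 ± 0.73, which was not tested. Among second probe sets, casy-1 gave -0.74 with overlap (unadjusted p = 0.0468), while cdh-1 at -0.74 (unadjusted p = 0.0318) and hmr-1 192793_s_at at -0.59 (unadjusted p = 0.0460) had every mutant value below the wild-type values, and none of these was called. The third hmr-1 probe set gave 0.06. The authors' deposited table gives the fold of the polysomal share as wild type over ife-1(bn127), which runs the other way, and lists 1.27 for cdh-7, 1.05 for fmi-1, 1.02 for cdh-10 and 0.982 for cdh-4.

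The combined level of 2 cadherin messages, cdh-7 and cdh-10, was lower in ife-1(bn127). Combined level is the log2 sum of normalized polysomal and nonpolysomal signal in a culture. Of the 8 members, 0 were called higher and 2 lower in limma, with a background of 21% higher and 18.5% lower over all probe sets. The members' median log2 difference was -0.27, beside 0.06 over all probe sets.

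cdh-7, by probe set 190177_at, read 76.7, 105.7 and 55.1 in polysomal RNA of ife-1(bn127), against 287.2, 288 and 327.5 in polysomal RNA of wild type. In nonpolysomal RNA it read 51.1, 74 and 69.4 in ife-1(bn127), against 133.3, 167.2 and 139.1 in wild type. Every mutant array lay below every wild-type array of its fraction. The combined level differed by -1.46 ± 0.16 on the log2 scale (SE, adjusted p = 0.0011, limma), which is 2.75-fold lower in the mutant.

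cdh-10, by probe set 180954_at, read 113.2, 200.7 and 26.8 in polysomal RNA of ife-1(bn127), against 561.3, 503.3 and 379.1 in polysomal RNA of wild type. In nonpolysomal RNA it read 24.6, 108.9 and 37.1 in ife-1(bn127), against 314.6, 307.5 and 298.2 in wild type. All wild-type arrays lay above all mutant arrays of their fraction, and a present call was made on 1 of the 6 mutant arrays and on all 6 wild-type arrays. The combined level differed by -2.44 ± 0.47 (SE, adjusted p = 0.00696, limma), or 5.44-fold lower in the mutant. That size rests on mutant signals mostly without a present call. Only the wild-type groups were called present on every array, so cdh-10 could pass the authors' detection filter through the genotype where it was high.

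Each fraction taken alone gave the same 2 genes. In polysomal RNA 0 members were higher and 2 lower, beside a background of 18.9% higher and 16% lower, and in nonpolysomal RNA 0 were higher and 2 lower, beside 14.1% higher and 13.2% lower. cdh-7 differed by -1.87 ± 0.24 in polysomal RNA (adjusted p = 0.00226, limma) and by -0.89 ± 0.21 in nonpolysomal RNA (adjusted p = 0.0207). cdh-10 differed by -2.54 ± 0.67 in polysomal RNA (adjusted p = 0.0234, limma) and by -2.56 ± 0.46 in nonpolysomal RNA (adjusted p = 0.00987). The latter is an estimated 5.90-fold, set against mutant signal that was never called present. Over all alternatives it ran from -3.13 to -1.76.

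Single cultures decided some of these calls. The polysomal difference of cdh-10 had an adjusted p of 0.0527 without ife-1(bn127) culture 1 and 0.0719 without wild-type culture 1, and its value was -1.67 without ife-1(bn127) culture 3 and -3.15 without ife-1(bn127) culture 2. The nonpolysomal difference of cdh-7 had an adjusted p of 0.0915 without ife-1(bn127) culture 1 and 0.0583 without ife-1(bn127) culture 3. The combined level of both genes stayed called without any 1 culture. In the authors' deposited table the fold of the summed signal, wild type over ife-1(bn127), is 3.19 for cdh-7 and 6.52 for cdh-10.

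**Figure D3:**
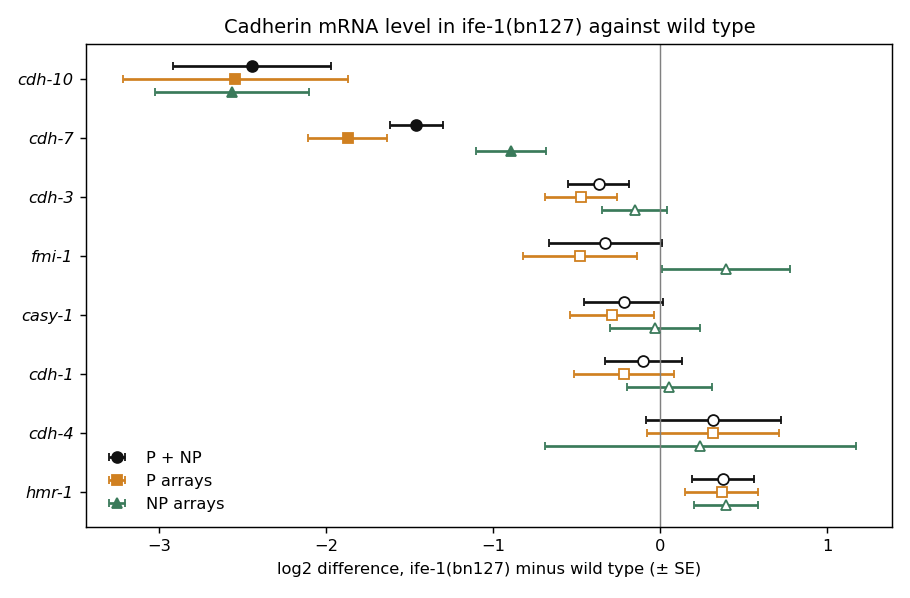
Log2 difference between ife-1(bn127) and wild type (mutant minus wild type, ± SE from limma over 3 cultures each) of 8 cadherin genes for the combined level (P + NP), polysomal arrays (P) and nonpolysomal arrays (NP); filled symbols passed an adjusted p of 0.05. cdh-10 at -2.44 and cdh-7 at -1.46 in combined level carry filled symbols throughout, and no other gene has one.

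Tissue marker signal also differed between genotypes, lower for some tissues and higher for others. Over all probe sets the background in combined level was 18.5% lower and 21% higher. The summed signal of 8 epidermal and seam markers was 37229 to 47163 in ife-1(bn127) cultures, against 65931 to 80503 in wild-type cultures, with 4 of 8 markers called lower and each marker called present in both genotypes. The largest differences among them were -2.60 for grd-10, -2.33 for the collagen gene rol-6 and -1.77 for the collagen gene dpy-7. By contrast lin-26 went the other way at 0.27, and nhr-25 stood at -0.15 and sqt-3 at -0.31, all without a call. The 6 measured neuronal markers summed to 16520 to 20158 in ife-1(bn127), against 25532 to 29318 in wild type, with 3 of 6 lower, or 2 without ife-1(bn127) culture 1. All 7 germline and oocyte markers were higher in the mutant (57533 to 61185 in ife-1(bn127), against 34417 to 44298 in wild type), and the 5 sperm markers summed to 10773 to 13221 in ife-1(bn127), against 8999 to 38122 in wild type, with 0 called, or 3 lower without wild-type culture 2. The germline and oocyte count was 4 without ife-1(bn127) culture 1 and 3 without ife-1(bn127) culture 3. The count of 7 includes glp-1, which was called present on every mutant array and on no wild-type array. It could pass the authors' detection filter only through the genotype where it was high. Of 5 body wall muscle markers 3 were called lower, but 1 with the replicate block or by dimmest probe sets, 0 on bacterial scaling or without ife-1(bn127) culture 1, 1 without ife-1(bn127) culture 2 or 3 or wild-type culture 1, and 2 without wild-type culture 2 or 3. Of 5 intestinal markers 1 was higher and 2 were lower, with 1 lower under the replicate block or without wild-type culture 1 or 2, 0 lower without ife-1(bn127) culture 3, and 0 called without ife-1(bn127) culture 1. Of 3 early embryo markers 2 were higher, 1 on deposited or median-scaled signals, and 0 without ife-1(bn127) culture 1 or 3. The part of tissue make-up in the cdh-7 and cdh-10 differences was not tested.

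**Figure D4:**
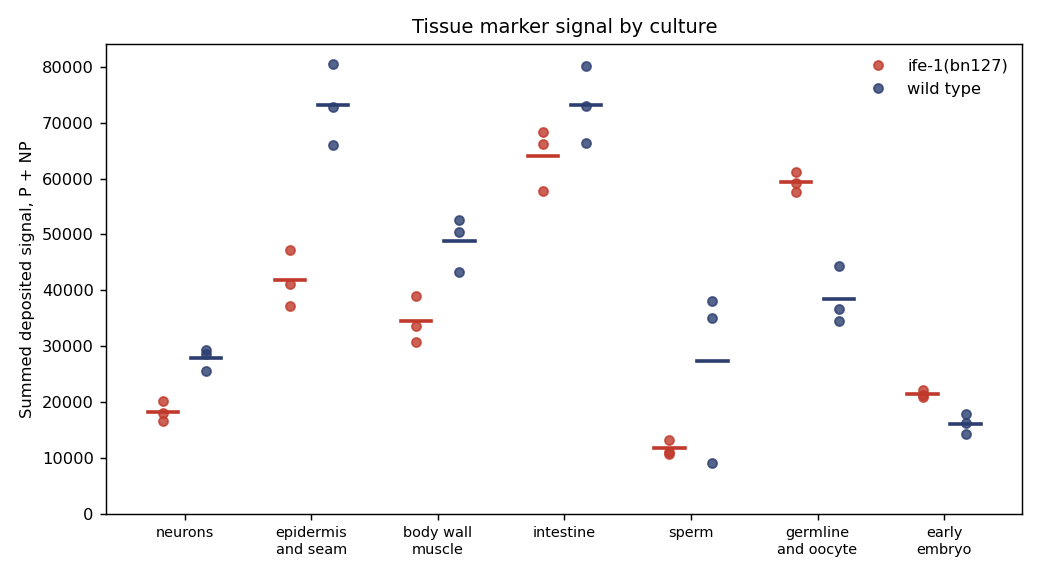
Summed deposited signal, polysomal plus nonpolysomal, of the marker genes of 7 tissues in each culture (linear signal units, axis from 0), with ife-1(bn127) left of wild type; points are cultures and bars are means of 3. Epidermal markers average 41833 in ife-1(bn127) and 73069 in wild type, and germline markers average 59334 in ife-1(bn127) and 38482 in wild type.

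The other 6 members were not called in combined level. hmr-1, at 2802.5 to 3696.4 on the 6 mutant arrays, read 2886, 3712.5 and 2126.1 in polysomal and 2303.2, 2391.6 and 1811.8 in nonpolysomal RNA of wild type. The mutant's combined level lay above the wild-type range, by 0.38 ± 0.18 on the log2 scale (SE, adjusted p = 0.139, limma). Without wild-type culture 2 the hmr-1 difference was 0.51 with an adjusted p of 0.0484. The other hmr-1 probe sets differed by 0.63 and 0.53 without a call. In nonpolysomal RNA of the mutant 192793_s_at was an estimated 1.94-fold higher (adjusted p = 0.049, limma). It was never called present in nonpolysomal RNA of wild type. Only the ife-1(bn127) groups were called present on every array for it, so it could pass the detection filter through the genotype where it was high.

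Log2 differences in combined level were 0.32 ± 0.40 for cdh-4, -0.10 ± 0.23 for cdh-1, -0.22 ± 0.24 for casy-1, -0.33 ± 0.34 for fmi-1 and -0.37 ± 0.18 for cdh-3, with adjusted p between 0.141 and 0.747 (limma). For cdh-3 the 3 mutant values lay below the 3 wild-type values, and the others overlapped. How many of all probe sets separate in this way was not counted. Without wild-type culture 2, fmi-1 was higher in nonpolysomal RNA of the mutant by 0.85 with an adjusted p of 0.0305, against 0.39 with an adjusted p of 0.470 when it was kept. Outside the list, the cadherin gene cdh-5 was measured and passed no comparison, at -0.38 in combined level (adjusted p = 0.276), and cdh-9 had no probe set in the table.

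Catenins join cadherins to actin or act in Wnt signalling. In combined level 2 of the 6 rose, 1 fell and 3 were not called, beside 21% higher and 18.5% lower over all probe sets, and the median was 0.39. wrm-1 differed by 0.92 ± 0.15 (adjusted p = 0.00342) and sys-1 by 0.95 ± 0.29 (adjusted p = 0.0326), both beta-catenins of the Wnt asymmetry pathway, and the Wnt effector bar-1 differed by -0.70 ± 0.17 (adjusted p = 0.0167, limma). sys-1 was not called without any of ife-1(bn127) cultures 1, 2 and 3 or wild-type culture 1 (adjusted p between 0.0635 and 0.0994), nor bar-1 without ife-1(bn127) culture 1 or 3 (0.0750 and 0.0522). On deposited, median-scaled and bacterially scaled signals 4 of the 6 rose, and 3 rose without wild-type culture 2. The junction catenins hmp-1 and hmp-2 were not called, at 0.43 and 0.34. jac-1, the p120 catenin, was the only catenin higher in the mutant's polysomal than nonpolysomal RNA, at 1.36 ± 0.20 (adjusted p = 0.000874, limma). Over all probe sets 22.7% were higher in that comparison.

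Among 15 genes of the apical junction and polarity, 7 were higher and 1 lower in polysomal than in nonpolysomal RNA of ife-1(bn127). The background over all probe sets was 22.7% higher and 26.1% lower. Among the 7 was 1 gene present on every polysomal array, but on only 1 nonpolysomal array of ife-1(bn127) and 0 of wild type. That gene could pass the authors' detection filter only through the fraction where it was high. Between genotypes 0 were called in association (limma), with 4 at an unadjusted p under 0.05, a threshold at which all probe sets were not counted. The count higher was 4 without ife-1(bn127) culture 1, 1 without culture 2 and 2 without culture 3, 8 without wild-type culture 1 or 2, 5 with the replicate block and 2 by dimmest probe sets. The afadin gene afd-1 stood at 1.17 ± 0.13 (adjusted p = 0.000306, limma), though its dimmest probe set gave 0.08 without a call. The lower gene was srgp-1, whose product shapes membranes at cell junctions, at -0.88 ± 0.18 (adjusted p = 0.00425), and its combined level was higher in the mutant, at 0.98 ± 0.15 (adjusted p = 0.00318). In combined level 3 of the 15 rose and 1 fell, beside 21% higher and 18.5% lower over all probe sets. Without ife-1(bn127) culture 1, or without ife-1(bn127) culture 3, that was 1 risen and 0 fallen.

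Of 6 planar polarity genes, whose fly homologues include partners of Flamingo, 5 were measured. In the mutant 1 of the 5 was higher and 2 were lower in polysomal than in nonpolysomal RNA, beside 22.7% higher and 26.1% lower over all probe sets. The count higher was 0 without any 1 of the mutant cultures and on median scaling, on bacterial scaling or by dimmest probe sets. The lower genes were the Dishevelled genes mig-5 at -0.72 ± 0.16 (adjusted p = 0.00593) and dsh-2 at -0.48 ± 0.14 (adjusted p = 0.0221, limma). dsh-2 lost its call without ife-1(bn127) culture 1 (0.0998) or culture 2 (0.111), and mig-5 without culture 1 (0.0535). The kinesin-1 light chain genes, whose products bind calsyntenins in mammals, went opposite ways between fractions of the mutant, klc-1 at -1.18 ± 0.17 (adjusted p = 0.000822) and klc-2 at 0.67 ± 0.15 (adjusted p = 0.00606, limma). klc-2 had an adjusted p of 0.0517 without ife-1(bn127) culture 3. By its dimmest probe set klc-2 stood at 0.37 without a call (adjusted p = 0.326, limma). The other kinesin-1 gene listed was not called, at 0.32. The background of 22.7% higher and 26.1% lower over all probe sets holds here too.

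Over the 12 arrays the profile of cdh-4 in normalized log2 signal was nearest to uda-1 (Pearson r = 0.962), sma-9 (0.958), bcf-1 (0.952), cla-1 (0.947) and aco-2 (0.947). Within the family its r was 0.889 with fmi-1, 0.880 with cdh-3 and 0.785 with casy-1, and 0.230 with cdh-7 and 0.0268 with cdh-10. cdh-7 and cdh-10 had an r of 0.877 with each other. These values are a description over arrays that share cultures and fractions, and the arrays fall into separate fractions and genotypes.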

How the data were processed

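Polysomal and nonpolysomal RNA was measured on 12 Affymetrix arrays. Per the labels, the deposited intensities are raw linear signals imported from the Affymetrix files, and the sources used here name neither the software nor a scaling step. Per the file headers, a detection filter by the authors took the table to 13372 probe sets out of 22626. A probe set could pass that filter through only the groups where its signal was high. That applies to cdh-10 in wild type and hmr-1 192793_s_at in ife-1(bn127). It also applies to cdh-4 and casy-1 187795_at in polysomal RNA and to cdh-1 193283_at in nonpolysomal RNA. Outside the members, glp-1 in ife-1(bn127) and 1 junction gene in polysomal RNA are among those affected. The differences of all these carry that limit. Deposited detection calls are known per group, not per array. Deposited fold ratios of share and sum, wild type over ife-1(bn127), were recomputed and matched within 0.0001. Another 36 columns of per-sample values in the workbook stayed unused.

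Tests covered 13333 probe sets, leaving out 39 controls. Signals under 1 were set to 1 (5 values), and log2 signals were quantile-normalized, which makes every level relative to the average message. limma 3.58.1 in R 4.3.3 fitted genotype over 6 cultures (lmFit, eBayes), with Benjamini-Hochberg adjustment over all probe sets and a threshold of 0.05. A gene is represented by its brightest probe set. Since cdh-4 was chosen on polysomal share, its fitted difference between fractions is given without a p-value. A group without a present call has only a bound: the other group's mean is set against the gene's signal or, if higher, the dimmest signal of any probe set present on all 3 arrays. Where the gene's own signal was the higher, the result equals the fitted difference, carries its error and is given as an estimate. The test was checked on simulated data. Tables and figures used Python 3.11.15, pandas 2.3.3 and matplotlib 3.10.9. The number of arrays limits the precision.

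Members and gene lists were chosen with earlier results of these data known. All members, cdh-5, cdh-9, at most 4 genes per list past the threshold, and the 5 genes most like cdh-4 are named. The genes hmp-1, hmp-2, grd-10, rol-6, dpy-7, lin-26, nhr-25, sqt-3 and glp-1 were named after their values were seen. The profile correlation of cdh-7 with cdh-10 was added after the values were seen. The deposited outline pairs mutant and wild-type cultures in growth sets, which makes the set number a pairing. The correlation of their deviations from the genotype means, for sets 1, 2 and 3, was -0.0320, -0.0627 and 0.0234 for association, and -0.113, -0.0532 and 0.130 for combined level. Probe set names ending in _s_at or _x_at are not specific to 1 transcript. Alternatives were other scalings, an offset of 50, a brightness filter, a variance trend, a replicate block, the dimmest probe set and each culture left out. Running them on the gene and marker lists was chosen after seeing the data. Protein lengths and sequences were not analysed here.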

Additional observations from a re-analysis of the deposited data

How the results depend on the processing

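Of 550 results of 1 member in 1 comparison under an alternative, 502 kept their direction and side of the threshold. Another 37 changed sign without a call on either side, 5 lost a call and 6 gained one. The tally takes in the cdh-4 difference between mutant fractions, which is a description without a test. The replicate block changed no count of members called. These were 3 of the 7 other than cdh-4 between fractions of ife-1(bn127), 0 in association and 2 in combined level. Of the other lists it left 1 body wall muscle and 1 intestinal marker lower in combined level, in place of 3 and 2, and 5 junction genes higher between mutant fractions in place of 7. Among brighter probe sets the counts were 0 in combined level, 0 in polysomal and 0 in nonpolysomal RNA, since cdh-7 and cdh-10 are not in that set. Scaling on 18 bacterial controls moved the median of all probe sets by -0.50 in association, 0.21 in combined level and 0.47 in nonpolysomal RNA. In nonpolysomal RNA it left 1 member called, cdh-10, while cdh-7 was at -0.59 (adjusted p = 0.299). Leaving out 1 culture gave 2 to 3 members in combined level, 1 to 2 in polysomal and 1 to 3 in nonpolysomal RNA. Association remained at 0 of 7 under every alternative run, with fmi-1 at an adjusted p of 0.0728 to 0.297 and cdh-7 at 0.0652 to 0.353.

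Signs of members that turned, all uncalled, were these. Between mutant fractions cdh-1 was 0.063 on deposited signals and 0.045 on bacterial scaling, and with 1 culture left out cdh-7 ran between -0.13 and 0.33 and cdh-10 between -0.13 and 1.31. In association cdh-10 was -0.33 on bacterial scaling and -0.094 with the offset, hmr-1 was 0.060 by its dimmest probe set, and with 1 culture left out cdh-10 ran between -0.68 and 0.76, cdh-1 between -0.62 and 0.013 and hmr-1 between -0.10 and 0.10. In combined level casy-1 was 0.026 on bacterial scaling, and with 1 culture left out cdh-1 ran between -0.29 and 0.090, cdh-4 between -0.17 and 0.69 and fmi-1 between -0.55 and 0.10. In polysomal RNA these ranges were -0.40 to 0.11 for cdh-1 and -0.14 to 0.71 for cdh-4. In nonpolysomal RNA they were -0.16 to 0.22 for cdh-1, -0.57 to 1.11 for cdh-4 and -0.32 to 0.14 for casy-1. There cdh-1 was -0.28 on deposited signals and -0.26 on median scaling, cdh-4 -0.14 and -0.13, and casy-1 0.053 and 0.068. Bacterial scaling gave 0.32 for cdh-3 and 0.65 for casy-1, whose dimmest probe set gave 0.12. Outside the members, 3 genes called higher between mutant fractions turned sign by their dimmest probe sets, ajm-1 at -0.20, sax-7 at -0.25 and dsh-1 at -0.17. Over all alternatives, epidermal markers lower in the mutant numbered 3 to 6, neuronal ones 1 to 4, and germline markers higher 3 to 7; junction genes higher in the mutant's polysomal RNA numbered 1 to 8 and catenins higher in combined level 1 to 4. The cause of these shifts was not tested. Of 48 polysomal shares under other scalings, 13 moved by over 1 SD. The planned description of share by protein length was not run.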
